A study of Mus musculus with 14 samples.

Results

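The solute carrier (Slc) genes encode a large group of membrane transport proteins, and here they are the genes whose mouse symbol begins with Slc, a family number and a letter. Of the 75761 CpG sites in the reduced representation bisulfite sequencing (RRBS) table, 939 had an Slc gene as their nearest gene, and these sites fell in 171 of 12627 genes. The symbol rule also took in genes that are not carriers: the scaffold proteins Slc9a3r1 and Slc9a3r2, which bind ion exchangers, and the antisense transcript Slc13a2os. The solute carriers move sugars, amino acids, fatty acids, lactate, ions, metals, nucleosides and vitamins across the plasma membrane and the membranes of organelles. Some run downhill, while others couple the movement of their substrate to a gradient of sodium or protons or exchange one solute for another. In fat, the glucose carrier Slc2a4 (GLUT4) moves to the cell surface in response to insulin, Slc27a1 helps fatty acids to enter the cell, and Slc16a1 and Slc16a3 carry lactate. Methylation of cytosine in CpG dinucleotides is commonly sparse in active CpG island promoters and dense within gene bodies.

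DNA came from the mammary adipose tissue of 14 female wild-type C57BL/6NCrl mice, from the fat pad opposite the one that bore a tumor. CON-LFD mice (n = 3) ate a diet with 10% of its energy as fat throughout, and all the others began with 15 weeks on a diet with 60% fat to induce obesity (DIO). DIO-HFD mice (n = 4) stayed on that diet, DIO-LFD mice (n = 3) were switched to the diet with 10% fat, and DIO-VSG mice (n = 4) made the same switch and had a vertical sleeve gastrectomy, which removes much of the stomach. The first 3 of these groups had a sham operation. All were 8 weeks old on arrival and had 1 week to settle, all received E0771 mammary tumor cells 7 weeks after the operation, and tissue was taken 4 weeks later, so no group was free of a tumor. Because DIO-VSG differed from DIO-HFD in both surgery and diet, the part of each cannot be told apart in that comparison, and DIO-VSG against DIO-LFD is the one that differs in surgery alone. For poor sequencing the authors excluded 1 mouse of CON-LFD and 1 of DIO-LFD. Whole fat pads hold several cell types, so a different level in the same cells and a different mix of cells cannot be told apart here. The methylation table cannot check the tissue by expression. Of the markers looked up, 2 of 8 for adipocytes (Lipe and Pparg) and 2 of 8 for leukocytes (Lat and Zap70) had promoter sites outside CCGG, and their mean level ran over 10.8 to 18.8% and 36.2 to 64.4% in DIO-HFD mice against 17.0 to 30.5% and 35.3 to 41.0% in DIO-VSG mice. DIO-HFD mouse 1 alone was at 36.2% for the leukocyte markers, and it had 17.8% for the adipocyte markers. In CON-LFD and DIO-LFD mice the adipocyte markers had 11.9 to 18.2% and 16.6 to 20.2%, and the leukocyte markers 40.8 to 57.7% and 37.0 to 54.4%. Markers of mammary epithelium (Cldn3, Esr1 and Krt5) had 30.4 to 42.8% in DIO-HFD and 32.5 to 41.5% in DIO-VSG mice, those of muscle (Ckm and Myod1) 33.4 to 49.4% and 45.2 to 47.8%, and the endothelial list had no such site. DIO-HFD mouse 1 was the highest of its group for the epithelial and muscle markers, at 42.8% and 49.4%. The part of these cell types in the results was not tested.

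Sequences are shown for 8 short stretches that are described below, to let the measured CpGs be seen in context. Each is the plus strand of mm10 (GRCm38) with the measured CpGs in capitals and flanks of 10 bases. RRBS covers only some of the CpGs in a stretch, so CpGs in lower case were present but not measured or not used.
Slc2a4, coding exon, chr11:69945329-69945429: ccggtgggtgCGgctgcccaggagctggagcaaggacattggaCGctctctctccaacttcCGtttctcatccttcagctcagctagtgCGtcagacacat
Slc16a3, intronic CpG island, chr11:120949363-120949620: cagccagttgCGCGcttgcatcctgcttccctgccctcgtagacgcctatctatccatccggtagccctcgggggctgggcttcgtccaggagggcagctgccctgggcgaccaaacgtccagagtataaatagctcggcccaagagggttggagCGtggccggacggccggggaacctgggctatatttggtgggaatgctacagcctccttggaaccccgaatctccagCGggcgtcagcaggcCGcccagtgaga
Slc16a6, intron, chr11:109471469-109471555: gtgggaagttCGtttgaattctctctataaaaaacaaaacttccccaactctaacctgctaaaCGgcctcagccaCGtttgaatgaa
Slc5a5, coding exon and intron, chr8:70884862-70884997: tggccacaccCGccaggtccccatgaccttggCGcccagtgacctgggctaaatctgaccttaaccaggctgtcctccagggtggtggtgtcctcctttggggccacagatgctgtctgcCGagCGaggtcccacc
Slc7a10, intron, chr7:35190618-35190730: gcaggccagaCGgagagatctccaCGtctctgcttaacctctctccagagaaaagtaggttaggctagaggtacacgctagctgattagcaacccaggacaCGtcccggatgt
Slc24a3, upstream of the gene, chr2:145140095-145140170: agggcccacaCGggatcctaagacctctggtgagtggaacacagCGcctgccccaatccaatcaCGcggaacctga
Slc39a13, coding exon and intron, chr2:91068728-91068819: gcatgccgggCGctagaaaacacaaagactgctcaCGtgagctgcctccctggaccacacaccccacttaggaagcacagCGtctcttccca
Slc44a4, upstream of the gene and within Ehmt2, chr17:34911497-34911594: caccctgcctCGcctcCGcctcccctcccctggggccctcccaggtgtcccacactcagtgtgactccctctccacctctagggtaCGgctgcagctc
They differed in how much of their CpG content was read. The Slc16a3 stretch was CpG rich, with 5 of its 18 CpGs measured and a GC content of 63.6%. The Slc16a6 stretch had 3 CpGs, all measured, and a GC content of 41.4%.

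The Slc sites resembled the whole table in level, with a median of 66.7% over the 14 mice against 66.5% over all sites. They lay somewhat more often in promoters as the table marks them (36.2% against 25.8%) and somewhat less often in CpG islands (20.0% against 23.8%). In the GENCODE gene models, 312 of the Slc sites were intronic, 165 lay in coding exons, 86 in 5′ UTRs, 5 in 3′ UTRs and 254 upstream of the gene. The assignment is to the nearest gene, so 42 sites were over 100 kb from the gene start, 759 were in the gene or within 10 kb of it, and 171 sat inside a different gene. The reference genome marks 171 of the Slc sites (18.2%) as lying in repeats, against 23.9% of all sites. For 136 Slc sites (14.5%) the 31 bases centred on the site had more than 1 exact copy in the genome, up to 19946. Several sites described below are among them, and the level at such a site may not belong to that position alone, which was not tested. Coverage per gene was uneven: the median was 3 sites, 46 genes had a single site and 29 had at least 10. Slc29a4, a polyspecific monoamine and nucleoside carrier, had the most with 30, followed by Slc4a2 with 26, Slc5a5 with 25 and Slc7a10 and Slc30a2 with 24 each.

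Within the Slc genes, the level varied with position. Outside the CCGG recognition sites of MspI, the enzyme that cuts the DNA, and by the marks of the table, promoter CpG island sites had a median of 19.5% (64 sites), promoter sites outside islands 56.0% (112), exonic sites 74.8% (98), intronic sites 76.4% (186) and sites with no such mark 83.6% (151). Promoter island sites within CCGG had a median of 48.9% (101 sites), a gap that the whole table also had (23.5% outside and 49.8% within). The reason for that gap was not tested. Counts of tested sites below include both kinds, while the stretches below and the levels by gene in this paragraph use sites outside CCGG. Of 25 Slc genes with a promoter island site of this kind, 12 had a mean under 10% and 2 were over 50%. The lowest were Slc24a3, a potassium-dependent sodium/calcium exchanger, at 1.2%, and Slc45a1, a proton-linked sugar carrier, at 1.7%, each from 1 site. The highest were the neuronal potassium/chloride cotransporter Slc12a5 at 56.9% and the large neutral amino acid carrier Slc7a5 (LAT1) at 50.9%, also from 1 site each. Exonic and intronic sites that the GENCODE models place inside the Slc gene itself were higher, with 59 of 71 genes over 50% and a median of 78.4%. Among genes with at least 3 sites there, the organic cation carrier Slc22a2 (93.0%), Slc26a11 of the anion exchanger family (91.7%) and the fatty acid carrier Slc27a1 (91.5%) were highest. The neuronal glutamate carrier Slc1a6 (14.6%) and the monocarboxylate carrier Slc16a6 (21.4%) were lowest. Females carry an active and an inactive X, and the 13 X-linked promoter island sites (in the nucleotide sugar carrier Slc35a2, the creatine carrier Slc6a8 and the ADP/ATP carrier Slc25a5) had group means of 27.2 to 32.5%, against 18.5 to 23.7% for the 51 autosomal ones. Over the whole table the group means were 26.3 to 28.9% for 899 X-linked sites and 25.7 to 29.9% for 2873 autosomal sites, and in DIO-VSG the X-linked sites were the lower (28.7% against 29.9%).

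**Figure D1:**
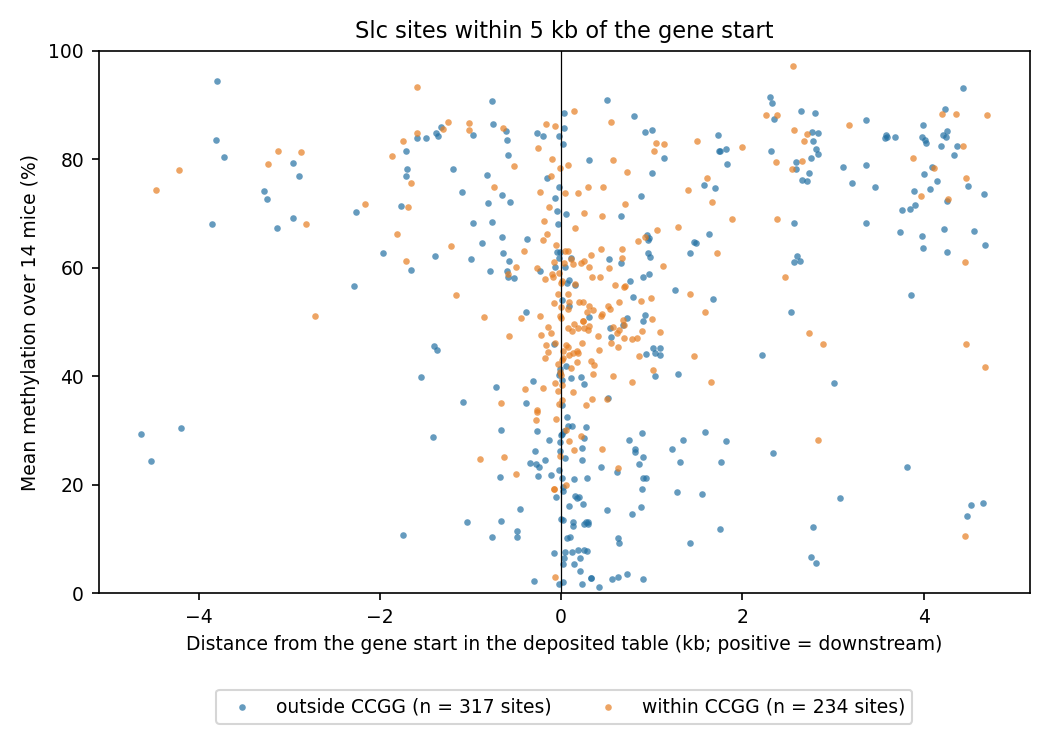
Level of each Slc site (mean over 14 mice, percent) against its distance from the transcript start in kb, for the 317 sites outside CCGG and the 234 within CCGG that lie within 5 kb. Sites outside CCGG dip toward low levels around the start, while many of those within CCGG stay near 50%.

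For tests, 772 Slc sites in 160 genes passed the minimum standard deviation of 0.05 across mice, of 65610 sites in all. Levels were turned into M-values (log2 of the methylated over the unmethylated share), in which 1 unit is a doubling of that ratio, and compared with limma. The mean level over the 772 sites showed 1 mouse apart. It was 66.1%, 57.1%, 58.0% and 57.7% in DIO-HFD mice 1 to 4. DIO-HFD mouse 1 was thus above every other mouse, whereas mice 2 to 4 were below all mice of the other groups. The means were 64.6%, 64.2% and 60.3% in CON-LFD mice, 65.4%, 61.5% and 62.7% in DIO-LFD mice, and 65.0%, 64.4%, 64.1% and 65.2% in DIO-VSG mice. By group they came to 59.7% ± 4.24 in DIO-HFD (SD, n = 4), 63.0% ± 2.38 in CON-LFD (n = 3), 63.2% ± 2.00 in DIO-LFD (n = 3) and 64.7% ± 0.47 in DIO-VSG (n = 4). CON-LFD exceeded DIO-HFD by 3.30 percentage points (5.41 without DIO-HFD mouse 1), DIO-LFD exceeded it by 3.48 (5.60) and DIO-VSG by 4.96 (7.07). All tested sites gave nearly the same group means (59.7, 63.0, 63.1 and 64.6%), so the Slc genes shared a shift of the whole table. The table holds nothing that could check the label of that mouse, so its group is taken from the label alone. For the sites and regions below, adjusted p-values of comparisons with DIO-HFD are given with that mouse and, in most cases, without it. That mouse was singled out from these same levels. Leaving it out widens the differences in mean level and narrows the spread of DIO-HFD, so smaller p-values follow from the choice itself. Values without it show how far a result hangs on 1 mouse and are no separate support. The table has no read counts, so the depth behind a level is unknown.

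**Figure D2:**
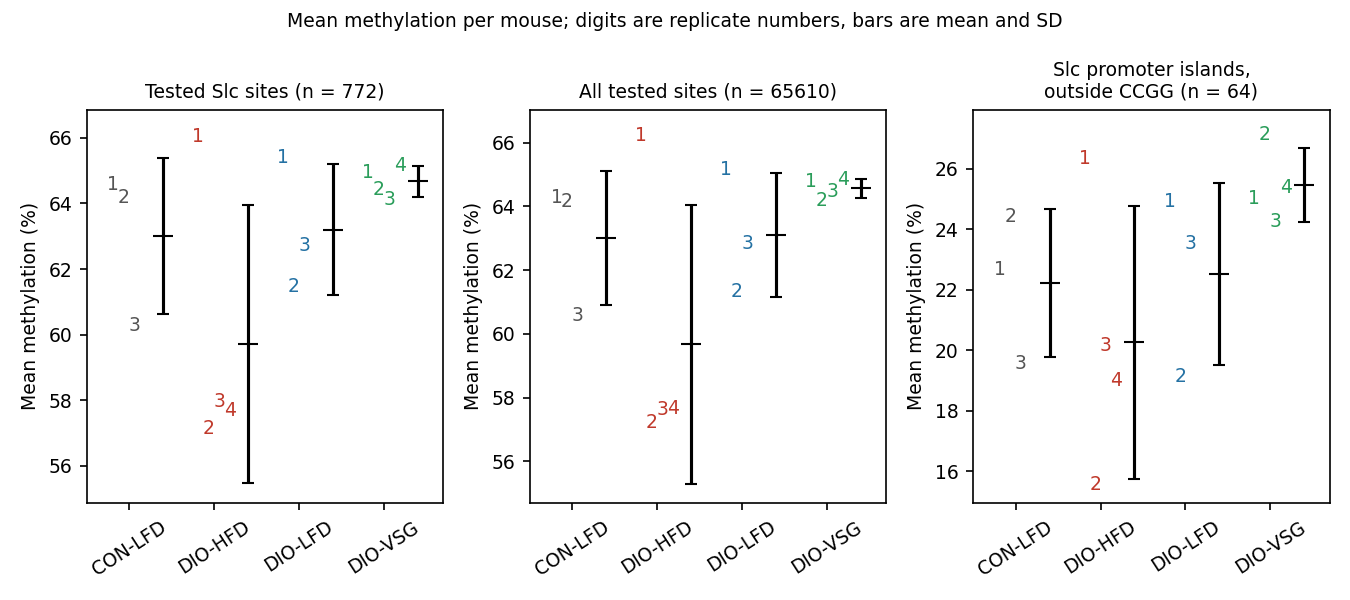
Mean methylation level (percent) of each mouse over the tested Slc sites, all tested sites and the 64 Slc promoter island sites outside CCGG, by group, with a digit (the replicate number) for each mouse and a bar for the mean and SD. DIO-HFD mouse 1 sits at 66.1% over Slc sites and the other DIO-HFD mice between 57.1 and 58.0%.

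The first comparison, CON-LFD against DIO-HFD, sets mice kept on the diet with less fat against mice kept on the one with more. No Slc site or region passed an adjusted p of 0.05 with limma and Benjamini-Hochberg adjustment over all tested sites, and 0 sites of the whole table did. At an unadjusted p under 0.05, 59 Slc sites were called, or 7.64% against 7.76% of all tested sites. Of these 48 were higher in CON-LFD (6.22% against 6.00%) and 11 lower (1.42% against 1.76%). Levels of the groups did not overlap at 35 Slc sites, or 4.53% against 4.68%. The median difference in M was 0.28 for Slc sites and 0.29 for all. Outside repeats, 37 of 607 Slc sites had an unadjusted p under 0.05 (6.10% against 7.39%), and within them 22 of 165 (13.3% against 8.80%). Without DIO-HFD mouse 1, 78 Slc sites passed the adjusted threshold (60 higher and 18 lower), 10.1% of those tested beside 12.0% of the table.

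The site with the smallest p lay in an intron of Slc8a1, the plasma membrane sodium/calcium exchanger (NCX1), at position 81684328 of chromosome 17, in a repeat with 5376 copies of the bases around it. Its level was 97.4%, 100% and 100% in CON-LFD mice and 89.5%, 81.0%, 79.0% and 76.9% in DIO-HFD mice. DIO-LFD mice (94.6%, 94.4% and 95.8%) and DIO-VSG mice (92.1%, 96.0%, 94.0% and 94.1%) also lay above every DIO-HFD mouse. CON-LFD exceeded DIO-HFD by 3.9 ± 0.48 (SE) in M, with a limma adjusted p of 0.110, and the alternatives gave adjusted p-values from 0.00409, without DIO-HFD mouse 1, to 0.604. The call was also made without CON-LFD mouse 1 (adjusted p 0.00740) and without DIO-LFD mouse 2 (adjusted p 0.0444). The other sites of the naming rule, all higher in CON-LFD without overlap, were near the glutamate carrier Slc1a3, the Golgi sodium/proton exchanger Slc9a7, the neutral amino acid carrier Slc6a15 and the nucleoside carrier Slc29a1 (ENT1). Their group means were 99.1% against 85.7%, 88.1% against 70.4%, 83.9% against 62.1% and 31.4% against 18.1%. The limma adjusted p was 0.611 for each of these 4 sites, and 0.0305, 0.0164, 0.0290 and 0.0317 without DIO-HFD mouse 1, up to 0.953 over the alternatives. Non-overlap of 3 mice with 4 fixes the two-sided exact permutation p at 0.0571, the smallest it can take. Those of Slc1a3, Slc9a7 and Slc6a15 lie in repeats, where the bases around them occur 18 times, 1 time and 6 times in the genome. The Slc29a1 site lies just before the gene start (-174 bp by the gene model), and its CON-LFD mice had 38.1%, 27.7% and 28.4%.

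The second comparison, DIO-LFD against DIO-HFD, asks what a change of diet alone goes with. Again no Slc site or region passed the adjusted threshold with limma, with 2 sites of the whole table (0.00305%) past it. At an unadjusted p under 0.05, 92 Slc sites were called, or 11.9% against 10.1% of all. In DIO-LFD 75 of them were higher (9.72% against 7.92%) and 17 lower (2.20% against 2.16%). The groups did not overlap at 51 Slc sites, 6.61% against 4.80%. The median difference in M was 0.31 over Slc sites and 0.30 over all. Without DIO-HFD mouse 1, 101 Slc sites passed (84 higher and 17 lower), 13.1% against 14.6%.

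Slc5a5, the sodium/iodide symporter that concentrates iodide in thyroid and lactating mammary gland, had the smallest p, at an intronic site at position 70885641 of chromosome 8. DIO-LFD mice had 87.7%, 91.9% and 79.7% there, and DIO-HFD mice 75.0%, 66.7%, 76.2% and 64.6%. The DIO-VSG mice, on the same diet, had 71.5%, 75.7%, 73.0% and 74.2%, within the range of DIO-HFD. A site in the 5′ UTR of Slc25a51, which brings NAD into mitochondria, went the other way. It had 15.4%, 20.3% and 3.6% in DIO-LFD mice and 40.9%, 30.3%, 38.9% and 29.7% in DIO-HFD mice. In DIO-VSG mice it had 18.8%, 29.3%, 40.4% and 35.4%, a range that holds 3 of the 4 DIO-HFD mice and 1 of the 3 DIO-LFD mice. A coding site of Slc6a8, which carries creatine, had 28.4%, 24.3% and 23.5% in DIO-LFD mice and 17.1%, 11.5%, 11.4% and 14.4% in DIO-HFD mice. An intronic site of the scaffold gene Slc9a3r2, at position 24646650 of chromosome 17, had 87.3%, 75.8% and 75.4% in DIO-LFD mice and 65.4%, 50.0%, 60.3% and 39.3% in DIO-HFD mice. The limma adjusted p was 0.494 at each of these 4 sites and at that of Slc8a1 (given above). Without DIO-HFD mouse 1 all 5 passed, with 0.0221 at Slc5a5, 0.0469 at Slc25a51, 0.0195 at Slc6a8, 0.0177 at Slc9a3r2 and 0.0160 at Slc8a1, and the alternatives reached 0.758.

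Regions were formed to use neighbouring sites together: stretches of at least 3 sites outside CCGG with the same nearest gene, each within 200 bp of the next. There were 5803 in the table and 79 in 57 Slc genes. In CON-LFD against DIO-HFD, 8 Slc regions had an unadjusted p under 0.05 (10.1% against 9.82%), and in DIO-LFD against DIO-HFD 6 did (7.59% against 11.9%). Without DIO-HFD mouse 1, 24 and 29 passed the adjusted threshold, 30.4% against 37.4% and 36.7% against 38.0% of all regions. DIO-LFD and DIO-HFD did not overlap in 2 Slc regions, or 2.53% against 3.53% of all regions. One spans an exon and intron of Slc11a1 (Nramp1), a divalent metal exporter of macrophage phagosomes, with 75.0%, 93.4% and 83.5% in DIO-LFD mice and 67.7%, 71.5%, 75.0% and 64.5% in DIO-HFD mice. The other is the Slc44a4 stretch printed above, described below with DIO-VSG, with 70.2%, 68.5% and 75.0% in DIO-LFD mice and 75.1%, 85.2%, 89.9% and 87.9% in DIO-HFD mice. Both had a limma adjusted p of 0.409, and 0.0397 for Slc11a1 and 0.00412 for Slc44a4 without DIO-HFD mouse 1.

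The third comparison was DIO-VSG against DIO-HFD, in which the mean levels lay furthest apart. At an unadjusted p under 0.05, 193 Slc sites in 83 of 160 genes were called, which was 25.0% of Slc sites and 25.0% of all tested sites. There were 152 higher in DIO-VSG (19.7% against 20.2%) and 41 lower (5.31% against 4.85%). The 83 genes were 51.9% of those tested, against 43.9% of all genes, and in 12 of them (14.5% against 12.0%) some sites were higher and others lower. No Slc site passed the adjusted threshold with limma, with 2 in the whole table (0.00305%). Groups did not overlap at 64 Slc sites, 8.29% against 7.58% of all. The median difference in M was 0.49 over Slc sites and 0.48 over all, which is the shift of the table against which single genes can be read. After the median of every mouse was subtracted, 148 Slc sites had an unadjusted p under 0.05 (19.2% against 20.0% of all sites) and 56 of these were higher (7.25% against 8.64%). More of the called sites were then lower than higher, in the whole table as in the Slc genes. Centring itself puts the median difference near 0 (0.0060 in M for Slc sites and -0.0067 for all), so no direction is read from this balance. Without DIO-HFD mouse 1, 250 Slc sites passed the adjusted threshold (216 higher and 34 lower), 32.4% against 34.4%. For regions, 30 of 79 had an unadjusted p under 0.05, or 38.0% against 38.9%, with 23 higher (29.1% against 32.3%) and 7 lower. None passed after limma adjustment, and 50 passed without DIO-HFD mouse 1 (63.3% against 61.5%). With the replicate number as a block 9 passed, beside 943 of all 5803 regions, but nothing says that the number pairs mice. The groups did not overlap in 3 Slc regions, 3.8% against 6.67% of all regions. In exact permutation tests the stretches printed above had p-values of 0.0286 (Slc7a10, the smallest possible) and 0.0571 (Slc2a4, Slc16a3, Slc24a3 and Slc44a4). Those of Slc16a6 and Slc39a13 had 0.0857, and that of Slc5a5 had 0.114.

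Sorted by substrate, the carriers of sugars had the highest share of sites called of the nutrient groups, with 18 higher and 1 lower of 43 (44.2%) and a median difference in M of 0.68. Carriers of amino acids and peptides had 39 higher and 6 lower of 156 (28.8%; median 0.57), and those of fatty acids, carnitine and bile acids 3 higher of 12 (25.0%; median 0.64). Monocarboxylate and other carboxylate carriers were evenly split, with 9 higher and 9 lower of 64 and a median of 0.21, below that of all sites. Among ion carriers, those of sodium, potassium, chloride, bicarbonate and protons had 13 higher and 5 lower of 100, and those of calcium, phosphate, sulfate and magnesium 6 higher and 2 lower of 24. Metal carriers had 21 higher and 2 lower of 87, while mitochondrial carriers had 1 of each of 43 (4.65%) and carriers of vitamins, cofactors and iodide 3 higher and 9 lower of 53. Neurotransmitter carriers had 6 higher and 0 lower of 45 (13.3%), and nucleoside carriers 9 higher and 2 lower of 45 (24.4%). Carriers of organic cations and anions had 8 higher and 1 lower of 63 (14.3%). Genes of other or no known substrate had the highest share of all groups, with 16 higher and 3 lower of 37 (51.35%; median 0.81). This group has only 5 genes, among them the scaffold gene Slc9a3r2, with 6 of its 9 sites higher and 0 lower. All these shares stand beside the 25.0% of all sites. Without DIO-HFD mouse 1, the share of sites past the adjusted threshold was 41.9% for sugars, 27.6% for amino acids, 25.0% for fatty acids, 31.2% for carboxylates, 31.0% and 33.3% for the ion groups in the order above, 40.2% for metals, 25.6% for mitochondrial carriers, 30.2% for vitamins, cofactors and iodide, 28.9% for neurotransmitters, 26.7% for nucleosides, 20.6% for organic cations and anions and 73.0% of 37 sites in genes of other or no known substrate, beside the 34.4% of all sites. Sugar carriers, metal carriers and the last group were thus above the table and the other groups below it. The groups were of unequal size and their sites often shared a gene, so no test was made between them. They also held sites within and outside CCGG and were not matched for position. DIO-VSG differed from DIO-HFD by -0.83 percentage points at Slc promoter island sites within CCGG and by 6.38 at Slc intronic sites outside it. The part of position in the differences between groups was not tested. For the sugar carriers the mean level was 79.0%, 68.4%, 68.7% and 71.3% in DIO-HFD mice and 79.1%, 79.3%, 79.4% and 78.6% in DIO-VSG mice. DIO-HFD mouse 1 again lay with the DIO-VSG mice. For the monocarboxylate carriers the group means were within 1.90 percentage points of each other, from 47.2% ± 1.25 in DIO-HFD to 49.1% ± 1.09 in DIO-LFD.

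**Figure D3:**
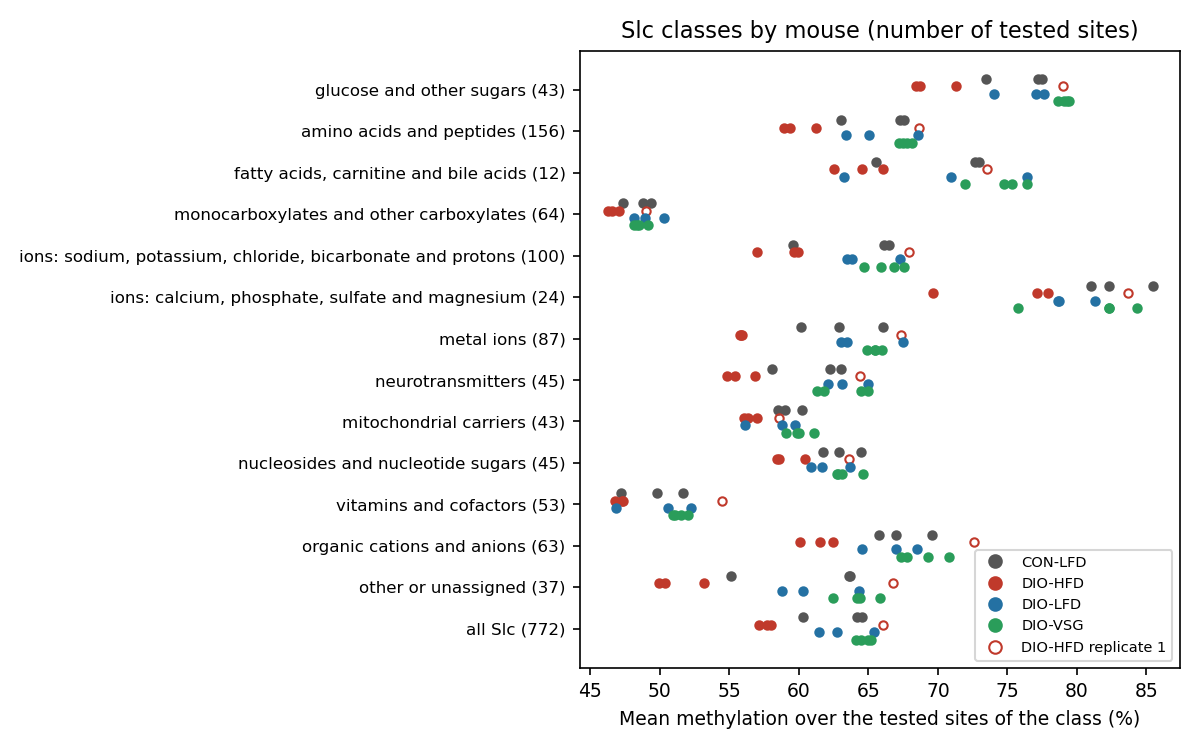
Mean level (percent) of each mouse over the tested sites of each substrate group of Slc genes, with a point for each mouse in the colour of its group and an open point for DIO-HFD mouse 1. Sugar carriers sit between 78.6 and 79.4% in DIO-VSG mice, and DIO-HFD mice 2 to 4 are the lowest for sugar, amino acid and metal carriers.

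Slc2a4 (GLUT4) had 5 tested sites, all with an unadjusted p under 0.05 and all higher in DIO-VSG (100% beside 20.2% of all). The 4 in the coding exon printed above, 2770 to 2849 bp into the gene, had a mean level of 86.4%, 63.1%, 65.1% and 73.5% in DIO-HFD mice. It was 87.5%, 88.5%, 88.8% and 86.3% in DIO-VSG mice, 86.0%, 79.0% and 81.6% in DIO-LFD mice and 86.0%, 80.0% and 78.2% in CON-LFD mice. DIO-HFD mouse 1 was the only one of its group to reach the levels of DIO-VSG, and the 2 groups overlapped through it. The difference was 1.33 ± 0.36 (SE) in M, with a limma p of 0.00198, an adjusted p of 0.0792, and adjusted p-values from 0.000244, without that mouse, to 0.217 over the alternatives. With mice centred on their medians it was 0.77. Of the other sugar carriers, GLUT1 (Slc2a1), which serves basal glucose uptake, had 92.9%, 78.1%, 75.4% and 78.3% in DIO-HFD mice and 87.0%, 100%, 100% and 86.7% in DIO-VSG mice at a site at -11622 bp from its start (limma adjusted p 0.175, and 0.0638 without DIO-HFD mouse 1). A site nearest to Slc2a12 (GLUT12), at -95787 bp from its start, was at 100% in all 4 DIO-VSG mice and at 90.6%, 91.5%, 80.0% and 76.9% in DIO-HFD mice. The groups did not overlap there, and the limma adjusted p was 0.150. The site lies in a repeat, with 8 copies of the bases around it. It passed in a fit of these 2 groups alone, with an adjusted p of 0.00909, as it did without DIO-HFD mouse 1 (0.00570), and its adjusted p was at most 0.345 over the alternatives. The urate carrier Slc2a9 had in its coding region means of 86.2% ± 1.29 in DIO-VSG and 85.3% ± 6.59 in DIO-HFD. The difference in M was -0.02 ± 0.39 (SE), and its sign turned under several alternatives.

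Among amino acid carriers, Slc7a10 (Asc-1) exchanges small neutral amino acids and marks white adipocytes. At an unadjusted p under 0.05 it had 6 of 21 tested sites higher in DIO-VSG (28.6% beside 20.2% of all) and 0 lower. Without DIO-HFD mouse 1, 7 passed the adjusted threshold, all higher (33.3% beside 34.4% of all). At the intronic site at position 35192476 of chromosome 7 the level was 67.9%, 64.7%, 60.3% and 66.0% in DIO-HFD mice and 79.0%, 80.7%, 82.8% and 79.4% in DIO-VSG mice. CON-LFD mice had 67.3%, 74.1% and 66.3% and DIO-LFD mice 71.6%, 72.6% and 73.5%, so that all 4 DIO-VSG mice lay above the other 10. Here DIO-HFD mouse 1 stayed with its group. The difference was 1.13 ± 0.24 (SE) in M, with a limma adjusted p of 0.150 and a range of 0.00315 to 0.345 over the alternatives. The intronic region printed above, further toward the gene start, did not overlap either. It had 79.3%, 73.4%, 70.8% and 71.8% in DIO-HFD mice and 83.0%, 82.1%, 81.5% and 80.4% in DIO-VSG mice, 0.63 ± 0.27 (SE) in M and 0.07 after centring. Its limma adjusted p was 0.106, or 0.0159 without DIO-HFD mouse 1. The other 2 Slc7a10 regions had 67.7% and 60.5% in DIO-HFD and 73.7% and 67.2% in DIO-VSG. Their limma adjusted p-values were 0.290 and 0.226, or 0.0126 and 0.0295 without DIO-HFD mouse 1, and their difference took a negative sign after centring.

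The site with the smallest p among those without overlap was nearest to Slc6a15, 265357 bp downstream of its start and outside the gene, at position 103633140 of chromosome 10, in a repeat with 18533 copies of the bases around it. It had 83.9%, 81.0%, 76.0% and 71.4% in DIO-HFD mice and 92.9%, 92.9%, 91.4% and 93.1% in DIO-VSG mice. DIO-HFD mouse 1 was the highest of its group there and still below every DIO-VSG mouse. The difference was 1.67 ± 0.32 (SE) in M with a limma adjusted p of 0.150, or 0.00197 without DIO-HFD mouse 1 and up to 0.345 over the alternatives. The other amino acid carriers on the list of nutrient carriers were less clear. The glutamine carrier Slc1a5 (ASCT2) had 49.5% ± 4.31 in DIO-HFD and 47.8% ± 3.23 in DIO-VSG (SD, n = 4 each) at its coding site. Slc38a2, which brings in glutamine and alanine, had 87.7%, 60.8%, 80.5% and 80.3% against 93.9%, 75.0%, 90.2% and 92.6% at a non-coding exon site, with overlap. Its region of 3 sites had 69.4% and 81.1%, with a limma adjusted p of 0.178, or 0.0372 without DIO-HFD mouse 1. Slc38a4, imprinted in mouse, had 47.5% ± 3.6 and 55.9% ± 9.88 in an intron, with limma adjusted p-values of 0.860, 0.252 and 0.414 for the sites of these 3 genes in the order given. Slc7a5, the uptake route for leucine, had a coding site in its promoter island, also within Gm20388, at 64.3%, 63.2%, 57.1% and 75.0% in DIO-HFD mice. DIO-VSG mice had 50.0%, 40.6%, 44.0% and 35.0% there, below every DIO-HFD mouse. DIO-LFD mice spread from 21.4 to 65.8%, and the limma adjusted p was 0.161, or 0.0882 without DIO-HFD mouse 1. A region in an intron of the same gene had 75.1% ± 5.40 in DIO-HFD and 82.8% ± 1.21 in DIO-VSG, the opposite direction. Its limma adjusted p was 0.163, or 0.0307 without that mouse, and its difference in M was 0.06 after centring. The glutamine carrier Slc38a8 had a region without overlap, at 73.5%, 75.8%, 74.8% and 77.2% in DIO-HFD mice and 78.0%, 78.3%, 80.4% and 81.9% in DIO-VSG mice. That difference was 0.35 ± 0.22 (SE) in M with a limma adjusted p of 0.235, or 0.194 without DIO-HFD mouse 1, and it was -0.22 after centring.

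The fatty acid carriers had few sites. In an intron of Slc27a1 (FATP1), a site at position 71573134 of chromosome 8 had 91.3%, 80.2%, 78.2% and 81.9% in DIO-HFD mice and 90.2%, 96.3%, 93.0% and 89.8% in DIO-VSG mice. The groups overlapped through DIO-HFD mouse 1, and the limma adjusted p was 0.151, or 0.0111 without it and up to 0.345 in the alternatives. A coding region of the same gene differed by 0.41 ± 0.47 (SE) in M, and by -0.15 after centring. For Slc27a4 (FATP4) a coding site had 74.0% ± 8.57 in DIO-HFD and 82.3% ± 1.97 in DIO-VSG, with a limma adjusted p of 0.342.

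Among the carriers of lactate and related acids, Slc16a3 (MCT4), the main lactate exporter of glycolytic cells, had neighbouring regions that differed in opposite directions. The intronic island printed above, 893 to 1129 bp from the start, is marked as promoter. Its level was 34.8%, 17.5%, 15.8% and 17.8% in DIO-HFD mice. It was 36.7%, 33.7%, 35.9% and 36.6% in DIO-VSG mice, 33.5%, 34.6% and 25.6% in CON-LFD mice and 32.8%, 24.6% and 31.6% in DIO-LFD mice. The region 92 to 252 bp from the start, over 7 sites of the 5′ UTR and intron, is marked as promoter outside islands. It had the reverse order: 11.8%, 31.2%, 29.1% and 25.8% in DIO-HFD mice and 14.3%, 13.1%, 12.3% and 13.2% in DIO-VSG mice. In both, DIO-HFD mouse 1 lay close to the DIO-VSG mice and mice 2 to 4 were apart from all of them. The differences were 1.06 ± 0.31 and -0.96 ± 0.34 (SE) in M, with limma adjusted p-values of 0.0792 and 0.0806. Over the alternatives these ran from 0.000296 and 0.000524, both without DIO-HFD mouse 1, to 0.217 and 0.223. Centring left their signs in place, at 0.49 and -1.53. All 7 sites near the start were lower in DIO-VSG and all 5 in the island were higher, beside 71.3% of all tested sites with a difference in M above 0. Neighbouring sites can share reads, so these counts add no separate support.

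**Figure D4:**
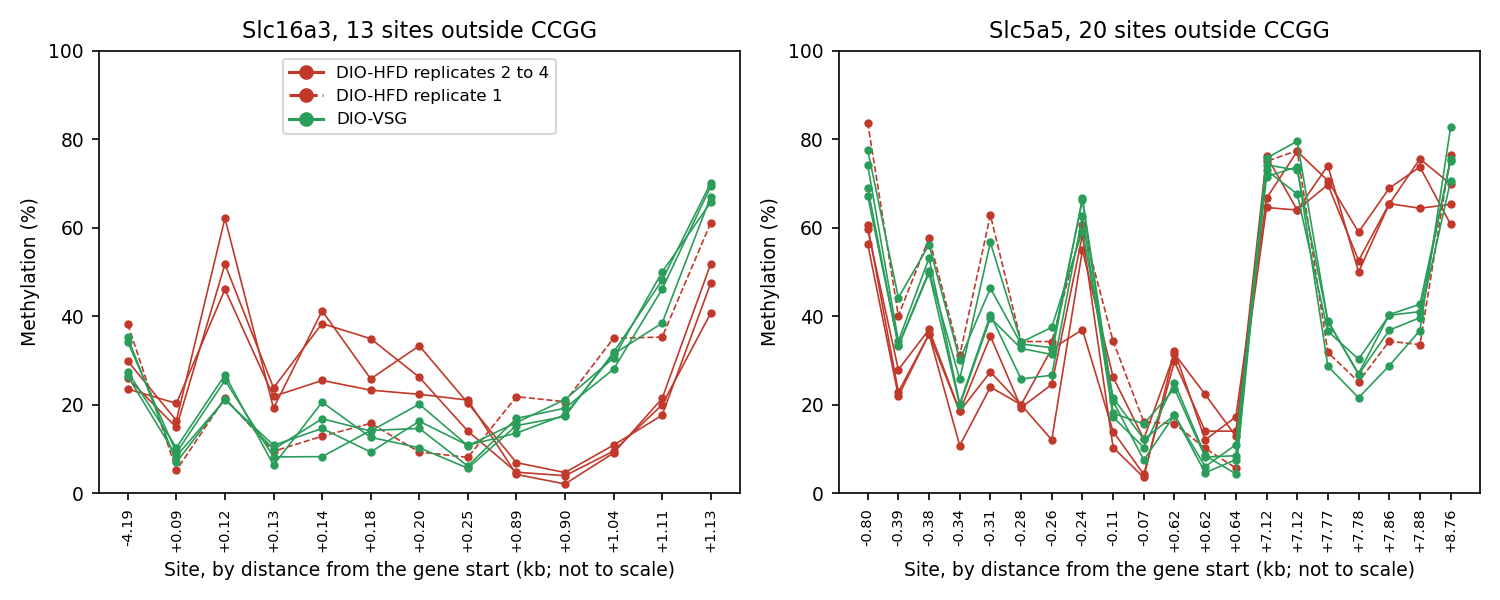
Level (percent) of each site outside CCGG in Slc16a3 and Slc5a5 for each DIO-HFD and DIO-VSG mouse, with sites evenly spaced in order and labelled by distance from the gene start in kb. In Slc16a3 the DIO-VSG means lie below DIO-HFD at 92 to 252 bp and above it at 893 to 1129 bp.

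Slc16a6 (MCT7), linked to the export of ketone bodies, was low for a gene body. Its intronic region had 12.3%, 35.7%, 33.3% and 29.5% in DIO-HFD mice and 6.9%, 10.7%, 12.9% and 14.3% in DIO-VSG mice. CON-LFD mice had 17.7%, 20.1% and 30.0% and DIO-LFD mice 26.0%, 28.4% and 21.5%, so 1 DIO-HFD mouse fell within the DIO-VSG range and no CON-LFD or DIO-LFD mouse did. The difference from DIO-HFD was -1.48 ± 0.40 (SE) in M with a limma adjusted p of 0.0792, which ran from 0.000306 to 0.217 over the alternatives. Slc16a1 (MCT1), which takes lactate and ketone bodies into cells, had its smallest p at a CCGG site at -625 bp from the start, at position 104638043 of chromosome 3. DIO-HFD mice had 48.3%, 37.4%, 37.4% and 41.2% there, and DIO-VSG mice 4.9%, 6.7%, 18.8% and 24.2%, without overlap. CON-LFD mice (15.2%, 35.9% and 14.4%) and DIO-LFD mice (7.9%, 49.5% and 9.7%) were spread across both, and the limma adjusted p was 0.150, or 0.0611 without DIO-HFD mouse 1.

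The region of the iodide carrier Slc5a5 printed above, 7771 to 7885 bp into the gene, was lower in DIO-VSG. Its sites are among those counted with the vitamin and cofactor carriers. It had 31.2%, 68.1%, 63.0% and 66.2% in DIO-HFD mice and 29.0%, 37.2%, 37.0% and 35.6% in DIO-VSG mice. CON-LFD mice had 35.4%, 39.3% and 54.8% and DIO-LFD mice 31.9%, 43.0% and 40.5%, so that DIO-HFD mice 2 to 4 were above all others. The difference was -1.31 ± 0.43 (SE) in M with a limma adjusted p of 0.0792, and from 0.000296, without DIO-HFD mouse 1, to 0.217 over the alternatives. A region 621 to 639 bp into Slc5a5 was also lower (18.1% ± 5.22 in DIO-HFD and 11.9% ± 1.51 in DIO-VSG). That upstream of the start was 28.8% ± 8.47 and 35.2% ± 2.73, a difference in M of 0.44 that became -0.12 after centring. Adjusted p-values in limma were 0.122 and 0.243 for these regions, and 0.00350 and 0.0127 without DIO-HFD mouse 1.

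The Slc24a3 (NCKX3) region lies far upstream of the gene, at -27649 to -27595 bp from its start, so its tie to that gene rests on distance alone, and all 3 of its sites lie in a repeat (2 to 2242 exact copies of the bases around them). It had 90.1%, 83.0%, 72.0% and 81.5% in DIO-HFD mice and 94.5%, 87.8%, 91.8% and 94.6% in DIO-VSG mice, with overlap through DIO-HFD mouse 1. The difference was 1.29 ± 0.35 (SE) in M with a limma adjusted p of 0.0792 and 0.00101 to 0.217 over the alternatives. The mitochondrial sodium/calcium exchanger Slc8b1 (NCLX) had 82.1%, 68.5%, 68.6% and 75.4% in DIO-HFD mice and 90.6%, 86.9%, 92.8% and 91.3% in DIO-VSG mice at an intronic site, without overlap. At the Slc8a1 site described for CON-LFD, the DIO-VSG mice (92.1 to 96.0%) were likewise above all DIO-HFD mice, whereas a nearby intronic region, also in a repeat, had 90.4% ± 4.60 and 89.0% ± 3.24. The limma adjusted p was 0.150 for both sites and 0.572 for that region, and without DIO-HFD mouse 1 it was 0.00259 for Slc8b1, 0.00630 for the Slc8a1 site and 0.413 for the region. The promoter island site of Slc24a3 was low in both groups, at 3.43% ± 4.39 in DIO-HFD and 0% in all 4 DIO-VSG mice. Of the other ion carriers on the list, the bicarbonate carrier Slc4a4 had 92.1% ± 7.47 and 98.8% ± 2.44 at a site at -11712 bp from its start, in a repeat with 2300 copies of the bases around it. The sodium/potassium/chloride carrier Slc12a2 had 62.8%, 64.3%, 61.2% and 66.7% in DIO-HFD mice and 75.0%, 100%, 68.4% and 67.2% in DIO-VSG mice at a CCGG site at -160 bp from its start, without overlap but with adjusted p-values of 0.206 and 0.252 in limma for these 2 genes (0.0196 and 0.235 without DIO-HFD mouse 1). Slc4a2 (AE2), the chloride/bicarbonate exchanger, had 3 of 26 sites higher at an unadjusted p under 0.05 (11.5% beside 20.2% of all) and 0 lower, and 12 passed the adjusted threshold without DIO-HFD mouse 1 (46.2% beside 34.4% of all).

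Zinc carriers had regions in both directions, and some of the differences were small once the shift of the table was removed. Slc39a13 (ZIP13), which moves zinc out of the secretory pathway, had 75.7%, 41.2%, 44.3% and 45.3% in DIO-HFD mice and 79.4%, 72.1%, 79.6% and 70.8% in DIO-VSG mice over the region printed above. CON-LFD mice had 69.5%, 70.9% and 51.5% and DIO-LFD mice 73.3%, 52.0% and 70.1%, again all above DIO-HFD mice 2 to 4. The difference was 1.47 ± 0.46 (SE) in M, with a limma adjusted p of 0.0792 and 0.000646 to 0.217 over the alternatives. Slc39a4 (ZIP4), the gut importer of dietary zinc, had 3 regions at an unadjusted p under 0.05, beside 38.9% of all regions. The region at -2743 to -2606 bp from its start had 70.5%, 66.2%, 67.0% and 67.3% in DIO-HFD mice and 77.6%, 79.6%, 74.3% and 74.9% in DIO-VSG mice, without overlap. With limma the adjusted p was 0.0870, or 0.0147 without DIO-HFD mouse 1, but the difference fell from 0.62 in M to 0.06 after centring, where the adjusted p was 0.878. Its gene body region was also higher (74.4% ± 10.3 and 84.8% ± 1.67), and the region over the 5′ UTR and a coding exon was lower (51.7% ± 7.31 and 41.6% ± 3.84), with limma adjusted p-values of 0.113 and 0.119, or 0.000973 and 0.00645 without DIO-HFD mouse 1. Slc30a2 (ZnT2), which loads zinc into milk, had 87.5%, 74.4%, 69.1% and 71.3% in DIO-HFD mice and 87.9%, 88.7%, 81.5% and 87.2% in DIO-VSG mice in a region at -3853 to -3793 bp from its start. That difference was 0.94 ± 0.35 (SE) in M, with a limma adjusted p of 0.0838 (0.00130 without DIO-HFD mouse 1), and it was 0.38 after centring. A larger Slc30a2 region of 16 sites had 48.2% in DIO-HFD and 52.9% in DIO-VSG, with a limma adjusted p of 0.439 (0.0686 without that mouse) and -0.30 in M after centring. Of all tested Slc30a2 sites, 3 of 19 were higher at an unadjusted p under 0.05 (15.8% beside 20.2% of all).

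**Figure D5:**
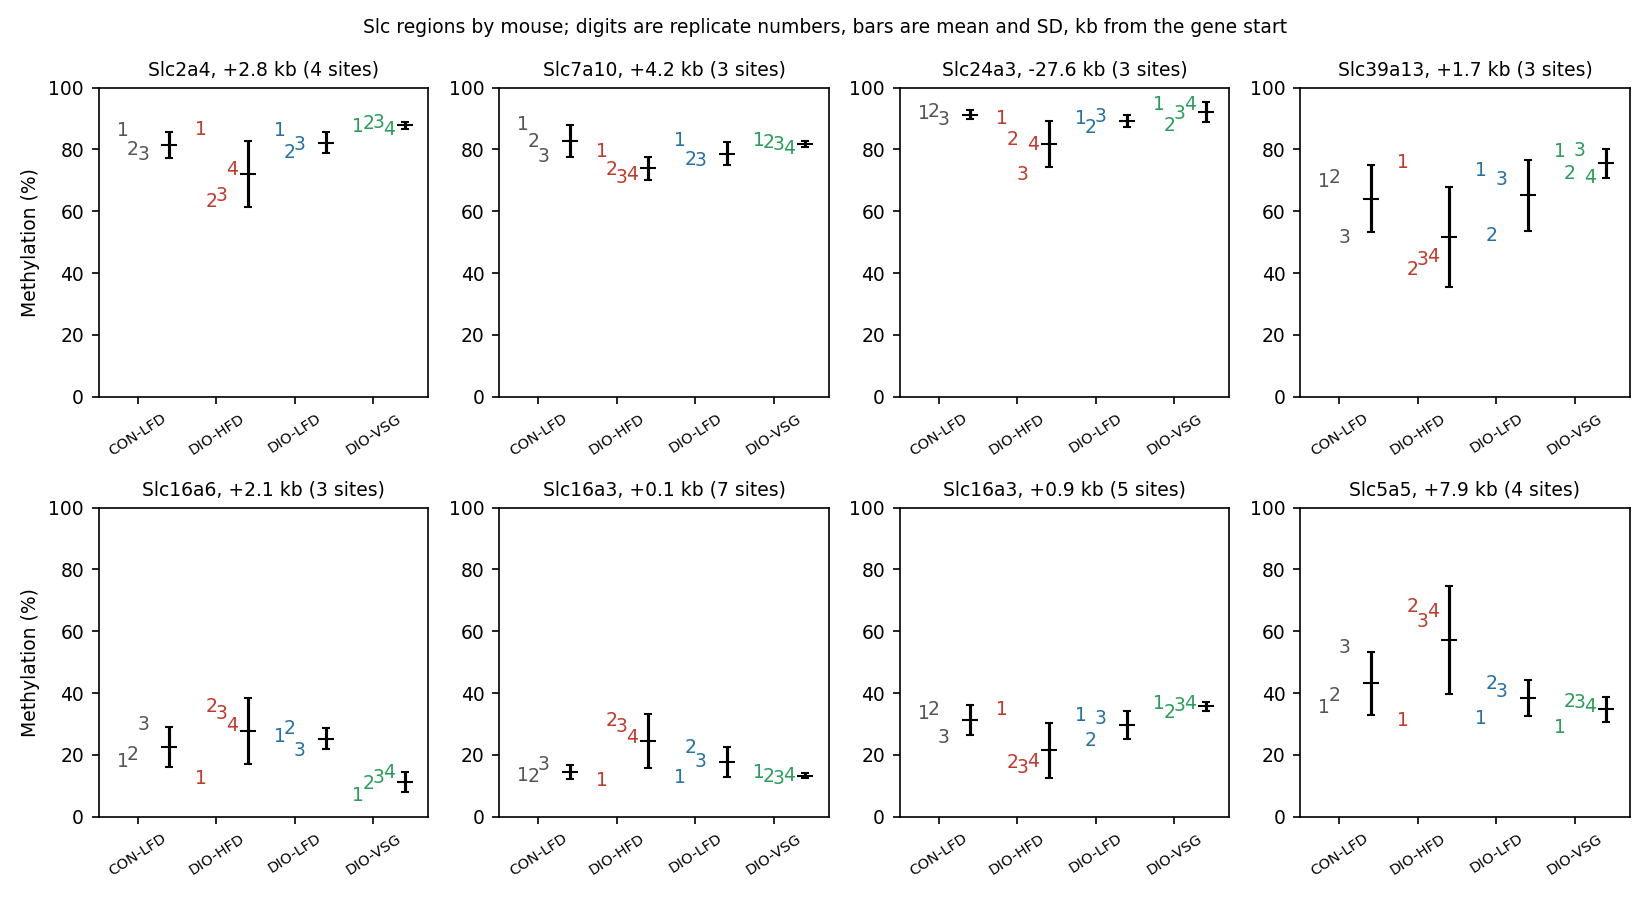
Mean level (percent) of each mouse in 8 Slc regions, by group, with the replicate number as the point, a bar for the mean and SD, and the distance from the gene start in kb. In the Slc2a4, Slc39a13, Slc5a5 and both Slc16a3 regions DIO-HFD mice 2 to 4 stand apart, and DIO-HFD mouse 1 sits near the DIO-VSG mice.

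Further regions belonged to other kinds of carrier. The Slc44a4 stretch, nearest to a choline and thiamine pyrophosphate carrier but inside the histone methyltransferase gene Ehmt2, had 75.1%, 85.2%, 89.9% and 87.9% in DIO-HFD mice and 72.9%, 76.4%, 68.5% and 70.0% in DIO-VSG mice. CON-LFD mice had 66.6%, 64.8% and 80.4%, and with the DIO-LFD values given before, only 1 mouse outside DIO-HFD exceeded 76.4%. The difference was -1.12 ± 0.34 (SE) in M with a limma adjusted p of 0.0792, from 0.00115 to 0.217 over the alternatives. The region just before the Slc44a4 start itself had 63.3%, 38.1%, 45.7% and 50.4% in DIO-HFD mice and 63.9%, 53.6%, 60.5% and 64.6% in DIO-VSG mice, the opposite direction, with an unadjusted limma p of 0.132. The scaffold gene Slc9a3r2 had 50.1% ± 18.2 in DIO-HFD and 72.7% ± 1.96 in DIO-VSG over its 5′ UTR and coding region, with 6 of the gene's 9 sites higher at an unadjusted p under 0.05 (66.7% beside 20.2% of all) and 0 lower. Its intronic site described for DIO-LFD had 82.5%, 83.8%, 77.9% and 74.4% in DIO-VSG mice, above every DIO-HFD mouse, with a limma adjusted p of 0.150, or 0.00507 without DIO-HFD mouse 1. In a coding exon of Slc47a2, a multidrug and toxin exporter, marked as promoter island, the level was low in both groups, at 6.4% ± 3.6 and 11.7% ± 2.89. In an intron of Slc26a9, an epithelial chloride channel, it was 72.4% ± 9.05 and 84.6% ± 2.25. A single promoter site outside islands in Slc26a9 went the other way, at 56.3% ± 19.2 and 28.4% ± 7.92, with DIO-HFD mouse 1 at 28.0%. The limma adjusted p was 0.0806 for the regions of Slc9a3r2, Slc47a2 and Slc26a9 and was lowest without DIO-HFD mouse 1, at 0.000535, 0.00186 and 0.00309, and highest at 0.219, 0.300 and 0.448. Of the remaining genes on the list, the mitochondrial citrate carrier Slc25a1 had 37.9% ± 5.29 and 43.7% ± 1.47 in its exons, and the imprinted organic cation carrier Slc22a18 had 41.1% ± 6.59 and 32.3% ± 3.79 in its 5′ region. Slc6a8, the creatine carrier, had 27.2% ± 4.85 and 31.0% ± 3.05 in a region of 8 sites. The limma adjusted p-values of these 3 were 0.295, 0.133 and 0.410 (0.0758, 0.0243 and 0.373 without DIO-HFD mouse 1), and the first and last changed sign after centring. Slc29a4, the gene with the most sites, had 4 of 23 tested sites higher at an unadjusted p under 0.05 (17.4%, under the 20.2% of all sites) and 0 lower. It had 9 past the adjusted threshold without DIO-HFD mouse 1, all higher (39.1%, over the 34.4% of all sites). Its 3 regions had 60.1%, 61.3% and 58.1% in DIO-HFD and 70.3%, 65.8% and 66.2% in DIO-VSG, and the last 2 also changed sign after centring. None passed with limma (adjusted p from 0.110 to 0.483), and all 3 did without DIO-HFD mouse 1 (0.0113, 0.0322 and 0.0166).

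The fourth comparison, DIO-VSG against DIO-LFD, held diet equal. No Slc site or region passed the adjusted threshold in limma, and 2 sites of the whole table did (0.00305%). At an unadjusted p under 0.05, 32 Slc sites were called, 4.15% against 3.98%, and 2 regions (2.53% against 2.45%). The sites were 15 higher in DIO-VSG (1.94% against 2.42%) and 17 lower (2.20% against 1.55%). With mice centred on their medians the count of sites was 49 (6.35% against 4.65%), of which 12 were higher (1.55% against 1.75%). The groups did not overlap at 67 Slc sites, 8.68% against 7.74%, and in 6 of 79 regions, 7.59% against 8.77% of all regions. The median difference in M was 0.16 for Slc sites and for all, and rested on single mice: it was 0.04 for Slc sites (0.05 for all) without DIO-LFD mouse 2 and 0.28 (0.27) without DIO-LFD mouse 1. Leaving out DIO-HFD mouse 1, which enters this comparison only through the shared estimate of spread, gave 61 Slc sites at an unadjusted p under 0.05 (7.90% against 6.77%) and 0 after adjustment (against 0.00457% of all).

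The Slc16a6 region had the smallest p of the Slc regions without overlap, with 6.9%, 10.7%, 12.9% and 14.3% in DIO-VSG mice and 26.0%, 28.4% and 21.5% in DIO-LFD mice. The difference was -1.39 ± 0.43 (SE) in M, with an unadjusted limma p of 0.00546 and an adjusted p of 0.942. The smallest site p was at Slc5a5, at -74 bp from the start, where DIO-VSG mice had 15.7%, 12.2%, 7.6% and 10.3% and DIO-LFD mice 2.1%, 0% and 3.2%. A site in the 5′ UTR of Slc26a5, the motor protein prestin of outer hair cells, had 16.7%, 0%, 0% and 0% in DIO-VSG mice and 21.6%, 43.3% and 21.8% in DIO-LFD mice. It lies within CCGG, and the spread in DIO-HFD mice was wide, from 2.9 to 39.7%. A site upstream of the orphan carrier Slc35f1, in a repeat with 879 copies of the bases around it, had 71.4%, 73.5%, 74.4% and 85.7% in DIO-VSG mice and 58.3%, 51.4% and 48.7% in DIO-LFD mice. The limma adjusted p was 0.886 for Slc5a5 and 0.945 for the others, and non-overlap of 3 mice with 4 again fixes the exact permutation p at 0.0571. In regions of Slc2a9 (86.2% ± 1.29 against 78.3% ± 4.83) and of the peptide carrier Slc15a1 (24.6% ± 2.94 against 19.2% ± 2.53) DIO-VSG was higher without overlap, with a limma adjusted p of 0.942 for both.

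Of 34 carriers listed by name for their roles in fat and mammary tissue, 21 had a site, and Slc25a10 had only a site below the minimum spread. DIO-HFD served as the reference in 3 of the 4 comparisons, so these share their controls and are not independent of each other.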

How the data were processed

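RRBS of mammary adipose DNA was aligned by the authors to mm10 with Bismark, and they called methylation with methylKit and left out 2 mice. They deposited the methylation level as a fraction (methylated reads over all reads) per site and mouse, with the nearest gene and position marks, in 1 table with 0 missing values and no read counts. Depth and intervals are therefore unknown, and PCR duplicates cannot be seen in RRBS fragments, which share their ends.

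Groups came from the sample labels, which do not say whether mice shared a cage or a sequencing run, so p-values measure the spread between these mice. Levels b became M = log2((b + 0.01)/(1 − b + 0.01)) at sites whose standard deviation across mice was 0.05 or more. All 4 groups were fitted in 1 limma model (limma 3.58.1, R 4.3.3), with Benjamini-Hochberg adjustment of the p-values over all tested sites, or over all 5803 regions, with a threshold of 0.05. Exact permutation tests were two-sided, and their smallest p is 0.0286 for 4 mice against 4. Repeats were the soft-masked bases of the reference genome, and exact copies of the 31 bases around each site were counted on both strands. The scripts were tested on simulated data. Gene models were GENCODE for GRCm38 and sequences were read from the same genome with pysam 0.24.0 (Python 3.11.15, pandas 2.3.3, Matplotlib 3.10.9).

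Named sites were, per comparison, those with the smallest p among sites without overlap (up to 5 sites and 3 regions, 1 per gene), the site with the smallest p of each of the 34 listed carriers in DIO-VSG against DIO-HFD, and the regions of those carriers and of the 5 genes with the most sites. Where a carrier had both a site and a region named, the text mostly gives the region. Other genes were named after their values were seen, among them Slc39a13, Slc44a4, Slc39a4, Slc9a3r2, Slc47a2 and Slc26a9. The genes, lists and 13 substrate groups were chosen with earlier results of these data known, and 2 genes were moved to another group after the table was opened. Alternatives were the offset of M, levels in place of M, another minimum spread, a fit of the 2 groups compared, centring on the median, sites in the gene or within 10 kb, other region settings, omission of each mouse in turn, and a block on the replicate number.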

Additional observations from a re-analysis of the deposited data

Results flagged for a closer look

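In groups of 4 mice, 14 of 142 sets of values had a mouse apart from the other 3 by Dixon's ratio of gap to range (above its 95% critical value), where chance gives about 1 in 20, or 7.1. The mean level over Slc sites in DIO-HFD had a ratio of 0.907, with mouse 1 at 66.1% and the others at 57.1 to 58.0%. The same mouse stood apart in the regions of Slc9a3r2 (0.945), the Slc16a3 island (0.897), Slc39a13 (0.883), Slc5a5 (0.863) and Slc29a4 (0.858, at position 142717729), and at the sites of Slc24a3 (0.838), Slc2a1 (0.837) and Slc30a2 (0.830). In DIO-VSG, Slc26a5 had a ratio of 1 with 16.7% in mouse 1 and 0% in the others, and Slc4a4 a ratio of 1 with 95.1% in mouse 2 and 100% in the others. Slc25a1 (0.870) had 75.5% in mouse 4 against 68.2 to 69.1%, Slc6a15 (0.853) 91.4% in mouse 3 against 92.9 to 93.1%, and Slc1a5 (0.834) 52.5% in mouse 2 against 45.4 to 46.6%. What set these mice apart was not tested.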

How the results depend on the processing

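Most calls past the adjusted threshold came from leaving out DIO-HFD mouse 1, in the comparisons with DIO-HFD. That mouse was singled out from the same levels, so these calls are no separate support. Across leaving out each mouse in turn, sites past an adjusted p of 0.05 (limma) ran from 0 to 78 in CON-LFD against DIO-HFD, 0 to 101 in DIO-LFD, 0 to 250 in DIO-VSG and 0 to 0 in DIO-VSG against DIO-LFD, and regions from 0 to 24, 0 to 29, 0 to 50 and 0 to 0. Sites at an unadjusted p under 0.05 ran from 32 to 206, 52 to 248, 114 to 343 and 28 to 61. The highest counts, without DIO-HFD mouse 1, were 26.7, 32.1, 44.4 and 7.90% of Slc sites, beside 30.9, 32.6, 44.9 and 6.77% of all. The difference in mean level ran from 2.44 to 5.41, 2.39 to 5.60, 4.10 to 7.07 and 0.613 to 2.57 percentage points. A fit of only the groups compared gave 32 sites at an unadjusted p under 0.05 in CON-LFD against DIO-HFD (4.145% against 4.155% of all). It gave 47 in DIO-LFD against DIO-HFD (6.09% against 4.68%). In DIO-VSG against DIO-HFD, 1 Slc site (Slc2a12) passed the adjusted threshold, with 47 sites in the whole table. With a minimum SD of 0.1, which tests fewer sites, the unadjusted counts were 10, 15, 53 and 12 of 136 (7.35, 11.03, 39.0 and 8.82%, against 7.61, 11.8, 39.8 and 3.50% of all). Outside soft-masked repeats, an alternative chosen after seeing the data, CON-LFD against DIO-HFD had 37 such sites of 607 (6.10% against 7.39%). Centring each mouse gave 49 such sites in DIO-VSG against DIO-LFD (6.35% against 4.65%). Keeping sites in the gene or within 10 kb gave 21 of 605 in that comparison (3.47% against 3.98% of all sites).

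With the replicate number as a block, 9 of 79 Slc regions passed the adjusted threshold in DIO-VSG against DIO-HFD, beside 943 of all 5803. Among them were those of Slc2a4, Slc24a3, Slc5a5, Slc16a6, Slc39a13, Slc9a3r2, the Slc16a3 island and the Slc44a4 stretch (limma adjusted p 0.0409 to 0.0429). By contrast, 0 Slc sites passed. Whether same-numbered mice are paired is unknown. Correlations of their deviations from the group means ran from -0.0804 to 0.202, and those of differently numbered mice from -0.288 to 0.191.

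Signs turned after centring for the regions of Slc38a8 (-0.22), Slc25a1 (-0.22), Slc30a2 downstream (-0.30), Slc7a10 (-0.19 and -0.16), Slc27a1 (-0.15), Slc6a8 (-0.30), Slc29a4 (-0.31 and -0.079), Slc4a2 (-0.11) and Slc5a5 upstream (-0.12). Across leaving out each mouse, the Slc2a9 site ran from -1.22 to 0.35, its region from -0.24 to 0.37 and the Slc8a1 region from -0.55 to 0.12. The Slc2a9 site had 0.35 without DIO-HFD mouse 4, and its region 0.023 with an offset of 0.1, 0.0084 as a level, 0.37 and 0.0012 without DIO-HFD mice 1 and 4, and 0.03 and 0.0040 without DIO-VSG mice 3 and 4. The Slc8a1 region had 0.12 without DIO-HFD mouse 2. The cause of these turns was not tested. Of 1645 values of named sites and regions, 1564 stayed on their side with their sign, and 62 gained a call (51 of them without DIO-HFD mouse 1). None of them had a call to lose. Without read counts, the error of a single level cannot be given.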
